A study of Mus musculus with 8 samples.

Results

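Vmn2r genes encode the vomeronasal receptors of type 2 of the mouse. They were taken by name: every protein-coding autosomal gene of the GENCODE vM21 annotation whose symbol begins with Vmn2r was a member, which gave 121 of 20807 genes. Their starts fell into 113 of the 48088 autosomal bins of 50 kb in which Hi-C contacts were counted (build GRCm38, which mm10 also names). Starts within 1 Mb of each other were joined into clusters, which gave 17 clusters on chromosomes 3, 4, 5, 6, 7, 10, 14 and 17. Each cluster is named below by its chromosome and, where a chromosome held several, by a letter in the order along it.

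Vomeronasal receptors of type 2 are G protein-coupled receptors with a long extracellular domain that bind peptides and proteins, pheromones among them, in sensory neurons of the basal layer of the vomeronasal organ. Their genes lie in tandem arrays that grew by duplication, so that many copies are nearly identical and stand among pseudogenes. Olfactory receptor (Olfr) genes and vomeronasal receptors of type 1 (Vmn1r) are organised in similar arrays. In cells that do not express them, such arrays usually lie in the inactive B compartment.

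The cells were splenic B cells of male mice of 6 to 12 weeks, labelled C57BL/6 (C57BL/6 Pep3b in the methods of the study), negatively isolated, labelled with the division dye CTV and cultured with 25 µg/ml lipopolysaccharide (LPS), a component of bacterial walls to which B cells respond. In situ Hi-C, in which fixed chromatin is cut with MboI and neighbouring ends are ligated and sequenced, gave 8 libraries in 4 groups of 2: 3 h, 10 h, 33 h with division imminent, and 33 h with S phase still ahead (pre-S). Cells of the last group were sorted by their fluorescence from mice that carry the FUCCI cell cycle reporter, whereas the cells of the other groups were sorted as undivided cells from mice without it. The paper calls the imminent division population bulk and gives no cell cycle sort for it, so it may include cells before S phase. Cell cycle stage, mouse line and sort therefore cannot be told apart in any comparison with pre-S. Pre-S against 10 h differs in time as well, and imminent division differs from 10 h in both time and stage. No RNA was measured in these libraries, so neither the identity of the cells nor the expression of the receptors was checked here.

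Libraries held 88703088 to 218945191 read pairs, and 70.9% to 75.1% of autosomal read pairs joined loci of the same chromosome. The second imminent division library stood apart from the others on the sex chromosomes, with 3.74% of read ends on X and 0.0490% on Y, against 2.39% to 2.84% and 0.0804% to 0.123% in the other 7 libraries. Counts of calls without it are therefore given beside the comparisons that use it. Replicates of a group were biological duplicates. With 2 of them, spread was pooled over the duplicates of all 4 groups, and every p-value measures only the spread between those samples.

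The first question was how much of the family can be read at all. A read that matches several copies cannot be assigned to one of them, and how such reads were treated is not given in the sources used here. For each bin, the share of its 50-base words that occur only at that place in the genome was computed (called unique words here, reads being 81 bases long). Promoters are printed for 3 pairs: near-identical promoters in bins with few unique words, similar promoters whose bins differed widely in unique words, and the gene of the most unique bin with its closest match. They are RefSeq windows of GRCm38.p6, from 250 bases before to 50 after the annotated start, written 5′ to 3′ on the strand of the gene, with capitals at the bases that differ within the pair.
Vmn2r40 (chr7:8931353-8931652, minus strand): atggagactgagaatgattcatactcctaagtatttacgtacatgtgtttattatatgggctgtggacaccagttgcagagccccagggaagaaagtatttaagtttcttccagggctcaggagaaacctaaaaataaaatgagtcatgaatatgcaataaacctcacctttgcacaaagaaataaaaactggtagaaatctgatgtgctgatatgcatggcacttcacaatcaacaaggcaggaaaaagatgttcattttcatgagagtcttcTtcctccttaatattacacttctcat
Vmn2r41 (chr7:8161502-8161801, minus strand): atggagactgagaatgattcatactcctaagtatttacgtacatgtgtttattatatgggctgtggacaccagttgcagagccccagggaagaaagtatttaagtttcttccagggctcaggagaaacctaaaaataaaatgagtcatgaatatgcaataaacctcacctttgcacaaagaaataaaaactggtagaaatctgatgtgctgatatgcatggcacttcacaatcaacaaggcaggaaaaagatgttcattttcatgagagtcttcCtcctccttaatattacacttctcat
Vmn2r20 (chr6:123418012-123418311, minus strand): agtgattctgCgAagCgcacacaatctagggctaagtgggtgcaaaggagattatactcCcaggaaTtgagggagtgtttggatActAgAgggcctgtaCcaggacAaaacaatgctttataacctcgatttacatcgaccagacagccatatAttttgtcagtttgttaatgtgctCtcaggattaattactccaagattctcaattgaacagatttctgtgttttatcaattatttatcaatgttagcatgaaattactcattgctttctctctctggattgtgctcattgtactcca
Vmn2r22 (chr6:123650586-123650885, minus strand): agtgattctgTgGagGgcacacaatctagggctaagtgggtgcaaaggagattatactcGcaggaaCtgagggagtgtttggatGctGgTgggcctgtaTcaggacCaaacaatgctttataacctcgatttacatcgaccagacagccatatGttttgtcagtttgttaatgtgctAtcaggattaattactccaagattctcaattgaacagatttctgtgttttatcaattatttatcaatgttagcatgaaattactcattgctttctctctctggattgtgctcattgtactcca
Vmn2r105 (chr17:20234823-20235122, minus strand): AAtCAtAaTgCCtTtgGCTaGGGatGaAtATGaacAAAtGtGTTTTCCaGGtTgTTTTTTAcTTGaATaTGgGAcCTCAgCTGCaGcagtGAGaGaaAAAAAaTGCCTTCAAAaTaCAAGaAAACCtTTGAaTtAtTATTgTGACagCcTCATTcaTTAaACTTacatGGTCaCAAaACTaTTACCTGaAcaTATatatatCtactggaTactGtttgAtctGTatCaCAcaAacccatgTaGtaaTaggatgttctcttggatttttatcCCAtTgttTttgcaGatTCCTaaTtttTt
Vmn2r95 (chr17:18423854-18424153, plus strand): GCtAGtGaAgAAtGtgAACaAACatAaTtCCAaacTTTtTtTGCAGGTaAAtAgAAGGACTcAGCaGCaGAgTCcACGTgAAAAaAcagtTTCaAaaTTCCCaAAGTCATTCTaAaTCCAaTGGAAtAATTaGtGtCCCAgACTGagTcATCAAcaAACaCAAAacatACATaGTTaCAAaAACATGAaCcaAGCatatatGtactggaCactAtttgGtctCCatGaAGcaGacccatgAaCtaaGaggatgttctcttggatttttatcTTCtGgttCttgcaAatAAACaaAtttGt
The windows of Vmn2r40 and Vmn2r41 in the chr7b cluster differed at 1 base, and only 4.15% and 4.31% of the words of their bins were unique. Vmn2r20 and Vmn2r22 in the chr6 cluster differed at 12 bases (96.0% identity), yet their bins held 0.119% and 68.7% unique words. Similar promoters could thus stand in bins that were read very differently. Vmn2r105 had the most unique bin of the family (97.2%), and Vmn2r95, the promoter closest to its own, matched it at 46.3% of positions.

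Promoter windows were found for 114 of the 121 genes. Their median GC content was 38.0% and their median number of CpG dinucleotides was 1, against 52.7% and 7 over all 32851 promoters, and 28.9% of Vmn2r windows held no CpG against 5.43% of all. Olfr windows (35.0%, 1 CpG) were alike in this. The MboI site GATC, which reads the same on both strands, was present in 62.3% of Vmn2r windows and in 48.0% of all windows. Against the closest other Vmn2r promoter, aligned without gaps, the median identity was 72.3%, and 40 of 114 windows had a partner at 90% or more, 16 of them in chr7b and 6 in chr17b, where the median identities were 99.0% and 98.2%.

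Bins with an interchromosomal count between 0.25 and 4 times the autosomal median, summed over the 8 libraries, were used for contacts. Of the 113 Vmn2r bins 98 were usable, and they held the starts of 106 of the 121 genes. All 15 bins left out fell below the lower limit, 12 of them in chr7b. They carried Vmn2r33 to Vmn2r42, Vmn2r46 and Vmn2r47 in chr7b, Vmn2r20 and Vmn2r21 in chr6, and Vmn2r62 in chr7d. Their share of unique words ran from 0% to 19.95% with a median of 4.31%, against a median of 78.4% in the usable bins. Just outside the limit lay Vmn2r38 (0.210 times the median), Vmn2r62 (0.237) and Vmn2r33 (0.244), and just inside it Vmn2r43 (0.279), Vmn2r48/Vmn2r49 (0.281) and Vmn2r32 (0.286). Limits of 0.1 and 10 would have kept 103 bins.

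**Figure D1:**
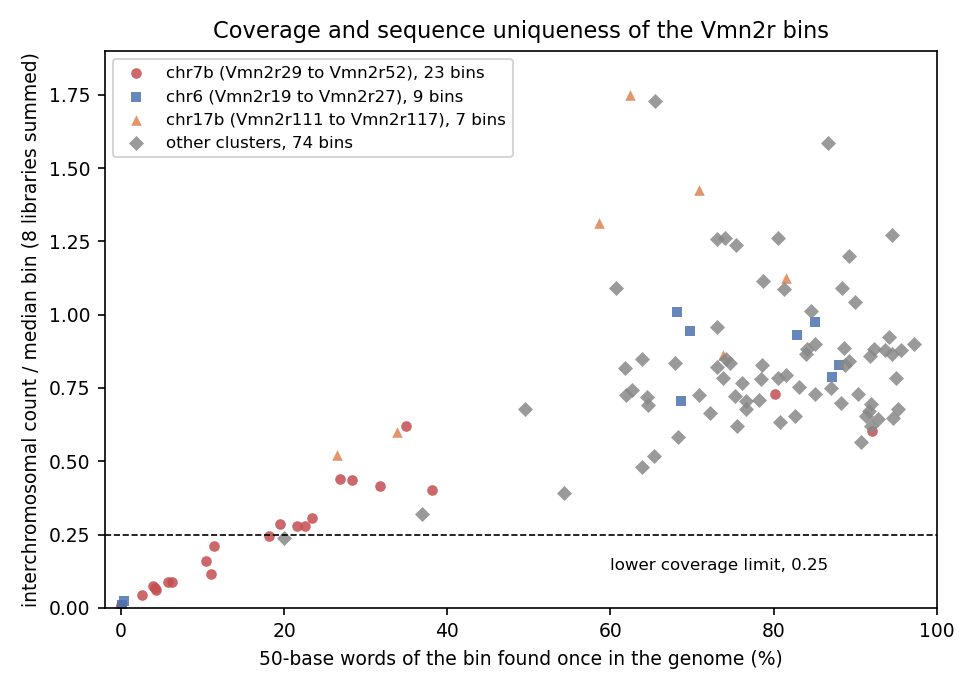
Each point is a Vmn2r bin, with its share of unique 50-base words on the x axis (%) and its interchromosomal count over that of the median autosomal bin on the y axis, summed over 8 libraries, and the dashed line is the lower limit of 0.25. The bins of chr7b run up from the origin, whereas bins of chr17b reach 1.75 times the median at 62.4% unique words.

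The lowest uniqueness belonged to Vmn2r46, whose bin had no unique word. It collected 53 interchromosomal ends in all, with 7 and 4 in the 3 h libraries, 1 and 5 for 10 h, 3 and 3 for imminent division, whereas pre-S had 16 and 14. Vmn2r47 (0.0364% unique, 135 ends), Vmn2r20 (0.119%, 124 ends), Vmn2r21 (0.417%, 260 ends) and Vmn2r35 (2.53%, 529 ends) followed. A bin at the median had 11983 ends, so these 5 were read at 0.00442 to 0.0441 times the median. At the other end stood Vmn2r105 (97.2% unique, 0.899 times the median), Vmn2r109/Vmn2r110 (95.6%, 0.880), Vmn2r70/Vmn2r71 (95.2%, 0.679), Vmn2r100 (95%, 0.783) and Vmn2r77 (94.7%, 0.648). Their coverage was below the median although nearly all of their words were unique. Over all Vmn2r bins the median was 74.7% unique words and 0.729 times the median coverage. Olfr bins had 84% and 0.90, Vmn1r bins 70.9% and 0.805, and all usable bins 94.5% and 1.01.

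The compartment of each bin was read from the first principal component of the contact correlation within its chromosome, positive in A, the gene-rich active compartment, and negative in B. Of the 101 Vmn2r bins with a component 93 lay in B, and the clusters with the lowest median were chr7e (-1.26), chr17a (-1.22) and chr5a (-1.15). The 8 bins in A were at the edges of arrays or stood alone. Vmn2r27 (0.729) and Vmn2r26 (0.623) close the chr6 cluster, Vmn2r84 (0.641) opens chr10b, Vmn2r29 (0.301) opens chr7b, Vmn2r1 (0.176) opens chr3, Vmn2r83 (0.0736) closes chr10a, and Vmn2r-ps159 (0.520) and Vmn2r18 (0.199) are the genes of chr4 and chr5b. Of 568 Olfr bins with a component 453 lay in B, and of 122 Vmn1r bins 106.

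Other genes of the vomeronasal organ were located from a list of 20. All 20 were in usable bins, 13 in A and 7 in B. The 7 signalling genes were all in A: Trpc2, the cation channel of vomeronasal transduction (1.37), Gnao1 and Gnai2, the G protein alpha subunits of basal and apical neurons (0.0133 and 1.20), the gamma subunit gene Gng8 (1.32), the olfactory marker protein gene Omp (1.27), and the chloride channel genes Ano1 and Ano2 (0.00122 and 0.739). Gnao1 and Ano1 were close to 0. Of the 9 H2-M genes, class Ib histocompatibility genes that basal neurons coexpress with Vmn2r receptors, 6 were in A, and H2-M1, H2-M9 and H2-M11 were in B (-0.334, -0.334 and -0.246). The 4 formyl peptide receptor genes were all deep in B (-1.24 to -1.20): Fpr-rs4, Fpr-rs6 and Fpr-rs7 lie inside the chr17a array, and Fpr-rs3 28.5 kb beyond it. Fpr-rs4 starts in the same bin as Vmn2r124.

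Coverage of the arrays differed between the groups. Relative to the median bin of each library, the median usable Vmn2r bin stood at 0.697 and 0.734 for 3 h, 0.707 and 0.736 for 10 h, 0.847 and 0.768 for imminent division, whereas pre-S had 0.882 and 0.875. Both 33 h groups were above all 4 earlier libraries, and the imminent division libraries lay further apart from each other (0.808 ± 0.0562, SD, n = 2) than those of any other group. B-compartment bins without Vmn2r genes went from 0.759 ± 0.0271 at 3 h and 0.784 ± 0.00184 at 10 h to 0.794 ± 0.0336 for imminent division, whereas pre-S had 0.870 ± 0.00340. Those with under 80% unique words went from 0.656 ± 0.0114 and 0.671 ± 1.22e-05 to 0.702 ± 0.0377 and 0.808 ± 0.000465. B bins were thus also highest at pre-S, and the part of the compartment and of mapping in the difference was not tested.

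**Figure D2:**
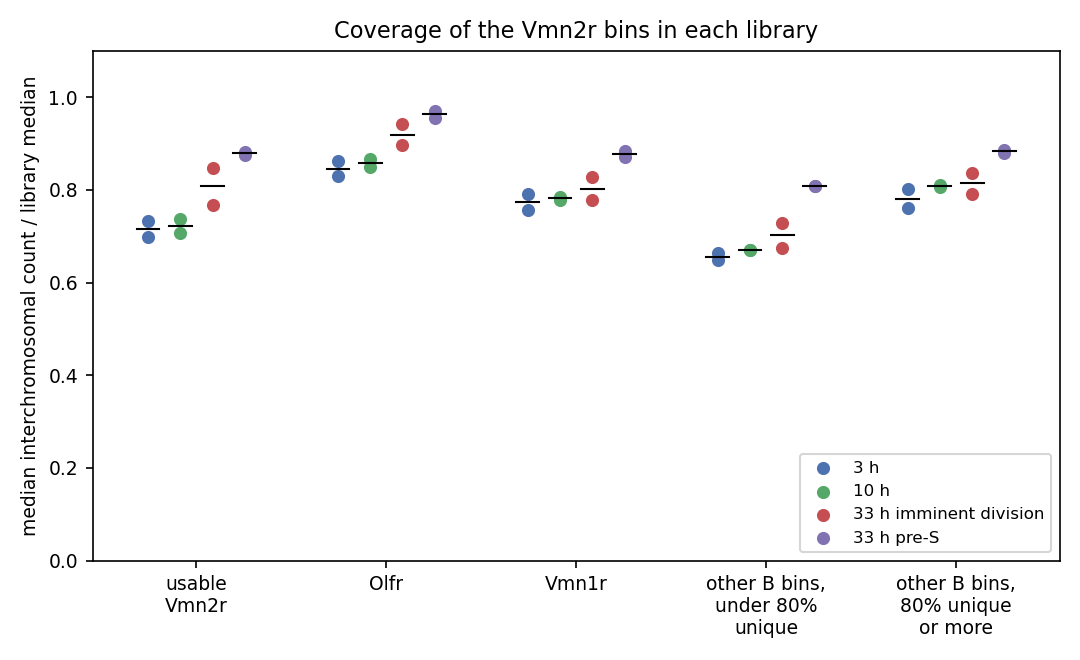
Each point is 1 library, and its height is the median over bins of the interchromosomal count divided by that of the library's median autosomal bin, with a short line at the mean of the 2 replicates, for 5 sets of bins. In usable Vmn2r bins both 33 h groups (0.768 to 0.882) lie above 3 h and 10 h (0.697 to 0.736).

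Among the clusters, chr7e moved most. Its 14 bins had medians of 0.546 and 0.566 for 3 h, 0.575 and 0.597 for 10 h, 0.725 and 0.644 for imminent division, whereas pre-S had 0.810 and 0.811, with no overlap between the 33 h libraries and the earlier ones. The 20 bins of chr17a went from 0.718 and 0.791 at 3 h and 0.792 and 0.785 at 10 h to 0.947 and 0.832, then 0.996 and 0.983. The 9 bins of chr5a stood at 0.690 to 0.734 in the 4 early libraries, with 0.887 and 0.855 for imminent division, whereas pre-S had 0.908 and 0.876. The 7 bins of chr17b stood at 1.12 ± 0.0115 for 3 h, 1.08 ± 0.00858 for 10 h and 1.12 ± 0.0450 for imminent division, and were highest at pre-S (1.19 ± 0.0202). The group means of chr17d, which holds Vmn2r120, ran from 1.25 ± 0.00412 at 3 h to 1.28 ± 0.0553 at imminent division, with 1.27 ± 0.0306 at pre-S.

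Interchromosomal counts per bin were tested with edgeR's quasi-likelihood test over 47811 autosomal bins, 109 of them with Vmn2r genes, at a Benjamini-Hochberg false discovery rate (FDR) of 5%. Between 3 h and 10 h 0 Vmn2r bins changed, 3 had an unadjusted p under 0.05, and DESeq2 also called 0 (0.00837% of all bins were called). From 10 h to imminent division 25 of 109 rose and 0 fell, which is 22.9%, against 7.87% of all bins higher and 8.86% lower (16.7% called). The share that rose was 6.69% among B bins, 9.04% among B bins with under 80% unique words and 18.5% among Olfr bins, and the difference of the Vmn2r share from these was not tested. All 9 bins of chr5a were among them, with log2 differences of 0.20 to 0.31, and 6 of 14 in chr7e. Vmn2r9 had normalized counts of 956 and 1081 at 10 h and 1303 and 1223 at imminent division (log2 difference 0.30, adjusted p = 0.00113, edgeR). Vmn2r14 (945 and 948, then 1207 and 1139) and Vmn2r10 (989 and 986, then 1235 and 1186) had differences of 0.31 and 0.29 (edgeR adjusted p = 0.00173 and 0.00178). DESeq2 called 15. The count was 48 without the second imminent division library, 9 without the first, and 5 without either of the 10 h libraries.

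Pre-S cells differed from 10 h in more bins. 72 of 109 (66.1%) rose and 0 fell, against 27.6% of all bins higher and 20.7% lower (48.3% called). The share was 49.2% among B bins, 59.4% among Olfr bins and 64.2% among B bins with under 80% unique words, again with no test of the difference. All 14 bins of chr7e rose, by 0.34 to 0.76 on the log2 scale, with 18 of 20 in chr17a, 9 of 9 in chr5a and 6 of 7 in chr3. By contrast 2 of 7 passed in chr17b, and none in chr10b, chr7c or the clusters of 1 gene. Vmn2r72 had the smallest p, with normalized counts of 795 and 730 at 10 h and 1319 and 1264 at pre-S (log2 difference 0.76, adjusted p = 2.92e-09, edgeR). Vmn2r66 went from 888 and 869 to 1294 and 1284 (0.55), and Vmn2r73 from 824 and 859 to 1231 and 1205 (0.53). All 3 are genes of chr7e.

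Imminent division was lower than pre-S in 53 of 109 bins (48.6%) and higher in 0, against 27.2% of all bins lower (43.7% called), 49.8% of B bins, 63.9% of B bins with under 80% unique words and 45.9% of Olfr bins. chr7e gave 13 of 14, chr17a 13 of 20 and chr7b 12 of 21, whereas chr5a gave 2 of 9. Vmn2r72 had 1064 and 871 normalized counts at imminent division against 1319 and 1264 (log2 difference -0.42, edgeR adjusted p = 9.89e-05). Vmn2r38 (280 and 283 against 399 and 434, difference -0.57) and Vmn2r35 (66.2 and 48.0 against 85.2 and 108, difference -0.77) passed too (edgeR adjusted p = 3.44e-05 and 0.000426), but their bins were below the coverage limit. DESeq2 called 33. The count was 14 when the second imminent division library was left out, and 16 or 30 without the first or the second pre-S library.

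Contacts were then compared with expected counts. The expected count of a bin pair was the mean of all usable pairs at that distance (or of all interchromosomal pairs) times the relative interchromosomal coverage of both bins, and the same ratio was computed for all pairs of B-compartment bins at the same distances. These ratios are descriptions per library and carry no test. For 463 bin pairs within clusters, observed over expected was 1.33 and 1.30 for 3 h, 1.26 and 1.26 for 10 h, 1.26 and 1.38 for imminent division, whereas pre-S had 1.08 and 1.1. The B-compartment pairs gave 1.1 to 1.36, and the clusters were above them in 5 of 8 libraries by at most 1.08 times. Without coverage in the expected count the order of the groups turned: 0.592 ± 0.0470 for 3 h, 0.602 ± 0.00818 for 10 h and 0.749 ± 0.0582 for imminent division, whereas pre-S had 0.779 ± 0.0131 (SD, n = 2).

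**Figure D3:**
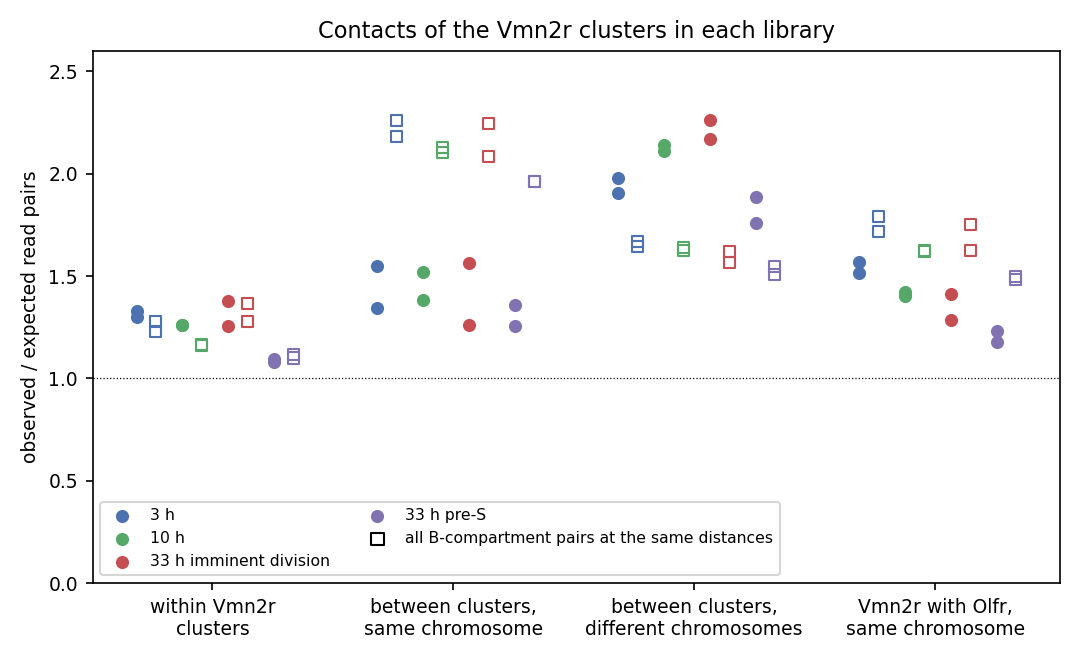
Filled points are the ratio of observed to expected read pairs for 4 kinds of Vmn2r bin pairs in each of 8 libraries, coloured by group, and open squares are the same ratio for all B-compartment pairs at the same distances. Pairs between clusters of the same chromosome (1.26 to 1.56) lie below the squares and pairs between clusters of different chromosomes (1.76 to 2.26) above them in 8 of 8 libraries.

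Single clusters differed far more than that average. In chr3 (Vmn2r1 to Vmn2r7) observed over expected was 2.31 and 2.27 for 3 h, 2.46 and 2.39 for 10 h, 2.34 and 2.70 for imminent division, whereas pre-S had 2.18 and 2.01, over 21 bin pairs and 4703 read pairs in all. It was above B-compartment pairs (1.05 to 1.32) in 8 of 8 libraries. In chr7e the values were 2.38 and 2.58 for 3 h, 2.37 and 2.33 for 10 h, 1.88 and 2.07 for imminent division, whereas pre-S had 1.56 and 1.51. The libraries of 3 h and 10 h, of imminent division and of pre-S did not overlap, and all stayed above B-compartment pairs (1.13 to 1.43). The expected count of this cluster rose with its coverage, and the part of coverage in the fall was not tested. chr7d (1.27 to 1.91), chr17a (1.20 to 1.66), chr7b (1.20 to 1.52) and chr6 (1.16 to 1.47) were also above B-compartment pairs in 8 of 8 libraries. chr5a went from 1.40 and 1.37 at 3 h to 0.967 and 0.908 at pre-S and was above them in 4 of 8.

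Other arrays had lower ratios within than B-compartment pairs. chr17b (Vmn2r111 to Vmn2r117) gave 0.492 and 0.419 for 3 h, 0.456 and 0.476 for 10 h, 0.536 and 0.607 for imminent division, whereas pre-S had 0.446 and 0.457, where B-compartment pairs gave 1.08 to 1.34. chr10a (0.583 to 0.803), chr10b (0.602 to 0.817) and chr14 (0.769 to 1.01) were below B-compartment pairs in 8 of 8 libraries as well. The ratios of chr10a, chr10b and chr14 rest on only 6, 3 and 1 bin pairs. Vmn2r83 in chr10a and Vmn2r84 in chr10b lay in A, so some of these pairs joined A to B. Bins in A were also present in chr3, chr6 and chr7b. The clusters chr17b, chr10a, chr10b and chr14 had median coverages of 0.985 to 1.26 times the autosomal median, against 0.519 to 0.866 for chr3, chr7d, chr7e and chr17a, and the ratio divides by that coverage.

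**Figure D4:**
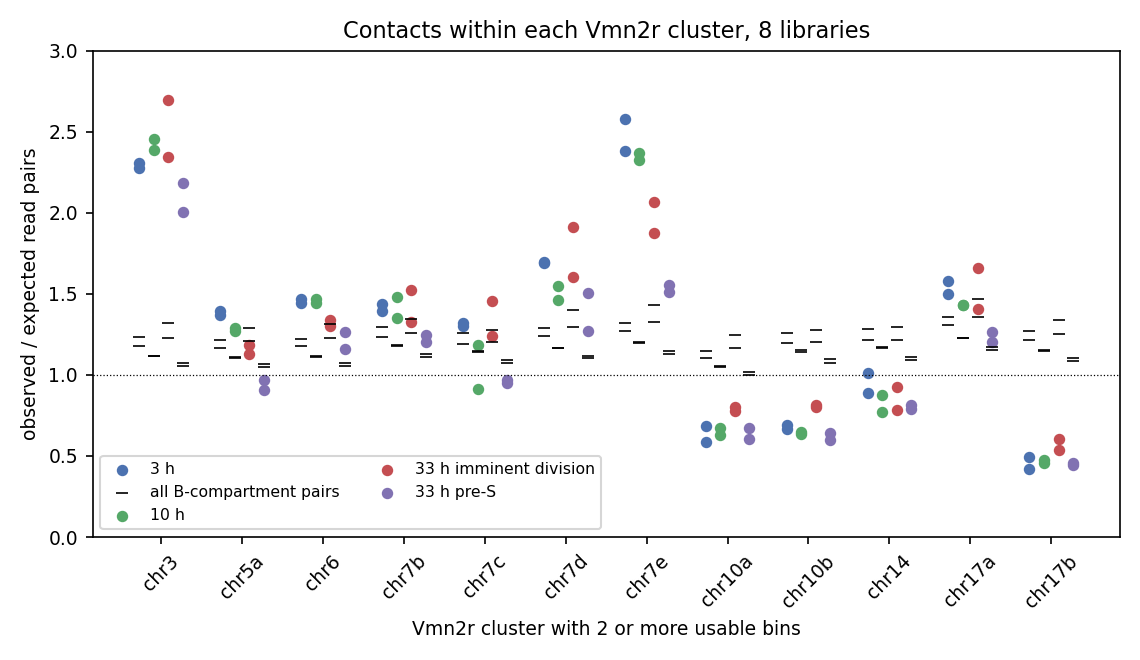
Points are observed over expected read pairs within each of 12 Vmn2r clusters with at least 1 usable bin pair, per library and coloured by group, and black dashes are B-compartment pairs at the same distances. chr3 (2.01 to 2.70) and chr7e (1.51 to 2.58) lie above the dashes and chr17b (0.419 to 0.607) below them in every library.

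Ratios were also read by shared sequence, since a read from one copy can be placed at another. Of the 463 pairs within clusters, 6 shared no 50-base word, and the median pair shared 156 words. Pairs with at most 50 shared words gave a mean of 1.62 over the 8 libraries, those with over 200 gave 1.03, and pairs with both bins at least 80% unique gave 1.53. Pairs that shared over 200 words thus had the lower ratio. Leaving out adjacent bins gave 1.33.

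Between clusters of the same chromosome, 647 bin pairs gave 1.55 and 1.35 for 3 h, 1.52 and 1.38 for 10 h, 1.26 and 1.56 for imminent division, whereas pre-S had 1.26 and 1.36. B-compartment pairs at these distances gave 1.96 to 2.26 and were higher in 8 of 8 libraries. Without coverage in the expected count the order turned, with pre-S highest (1.01 ± 0.0243) and the 3 h libraries lowest (0.801 ± 0.0236), and the mean over libraries fell from 1.40 to 0.882. Of 18 cluster pairs, 8 were below B-compartment pairs in every library and 2 above, both of the latter on chromosome 7. chr7b with chr7d, 31219 kb apart, gave 3.04 to 4.34 per library (471 read pairs against 128 expected, ratio 3.69, 95% exact Poisson interval 3.36 to 4.04). chr7c with chr7d, 28661 kb apart, gave 2.88 to 4.0 (218 read pairs, ratio 3.51, interval 3.06 to 4.01). By contrast chr17a and chr17b, which are separated by 1948 kb, gave 0.875 to 1.13 over 2292 read pairs (ratio 1.01) where B-compartment pairs gave 1.87 to 2.2. These intervals cover counting error only, and read pairs are not independent molecules. In chr7b 11 of 23 bins were usable, and the median share of unique words over its bins was 18.1%. Its usable bins had median coverages of 0.381 to 0.481 per library, by which the ratio divides. The part of mapping in the ratio of chr7b with chr7d was not tested.

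Between clusters of different chromosomes, 3643 bin pairs held 78 to 277 read pairs per library. Observed over expected was 1.98 and 1.91 for 3 h, 2.11 and 2.14 for 10 h, 2.17 and 2.26 for imminent division, whereas pre-S had 1.76 and 1.88. Without coverage in the expected count pre-S (1.37 ± 0.0332) was no longer lowest and lay above 3 h (1.02 ± 0.0336) and 10 h (1.16 ± 0.0276), with 1.42 ± 0.108 for imminent division. With coverage, the ratio was above B-compartment pairs (1.51 to 1.67) in 8 of 8 libraries, by 1.139 to 1.39 times. Olfr clusters of different chromosomes, by contrast, gave a mean of 1.24 ± 0.00314 at 10 h and were below B-compartment pairs in 8 of 8, as were Vmn2r bins with Olfr bins of other chromosomes. By shared sequence, the mean Vmn2r ratio was 2.31 with at most 50 shared words, 1.84 with 51 to 200 and 2.04 with over 200, and 1.57 to 2.37 per library where both bins were at least 80% unique. In the second 3 h library the ratio was below B-compartment pairs (1.64) where both bins were that unique (1.57, 27 read pairs) and with 51 to 200 shared words (1.62, 42 read pairs), so in these 2 subsets it was above them in 7 of 8 libraries. With at most 10 shared words it ran from 1.05 to 4.02 per library, over 228 bin pairs and 76 read pairs in all. The lowest of these values was also below B-compartment pairs. Of 118 cluster pairs 15 had an expected count of at least 10. chr7b with chr17a (86 read pairs, ratio 4.07) was above B-compartment pairs in 8 of 8 libraries and chr7d with chr17a (83 read pairs, 4.14) in 7 of 8, while chr7e with chr10a had 4 read pairs (0.354). The limits of chr7b given above for pairs of the same chromosome hold here too.

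Vmn2r bins met Olfr bins of the same chromosome in 4911 usable pairs. Observed over expected was 1.57 and 1.51 for 3 h, 1.40 and 1.42 for 10 h, 1.29 and 1.41 for imminent division, whereas pre-S had 1.18 and 1.23, so that the pre-S libraries were below all others. B-compartment pairs gave 1.48 to 1.79 and were higher in 8 of 8 libraries. Without coverage in the expected count pre-S was highest (0.992 ± 0.00348, against 0.832 ± 0.0478 at 3 h).

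The Olfr partners separated by compartment. Clusters were placed by the mean component of their bins. Where the Vmn2r cluster was in B and the Olfr cluster in A, the median over 14 cluster pairs was 0.206 (0.0900 to 1.77), and 2 of them were over 1. Where both were in B the median over 38 pairs was 1.58 (0.578 to 5.83), and 28 were over 1. Against B-compartment pairs at the same distances, however, 6 of the 38 were above in 8 of 8 libraries and 18 below in 8 of 8, and 13 of the 14 were below. The component is computed from the same matrices, so this is a description and not an independent check. The highest ratio joined chr7c (Vmn2r53 to Vmn2r56) with the Olfr cluster that begins with Olfr1344, 5991 kb away. It was 5.0 and 5.23 for 3 h, 5.39 and 5.75 for 10 h, 4.94 and 7.55 for imminent division, whereas pre-S had 6.68 and 5.85 (494 read pairs, ratio 5.83, 95% exact Poisson interval 5.33 to 6.37). chr7d and chr7b met the same Olfr cluster at 3.46 and 2.29. chr7e, which interleaves with the Olfr cluster that begins with Olfr310, gave 2.13 over 15854 read pairs. Olfr520 and its neighbour on chromosome 7, in A, met chr7e at 0.128 (30 read pairs against 234 expected).

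**Figure D5:**
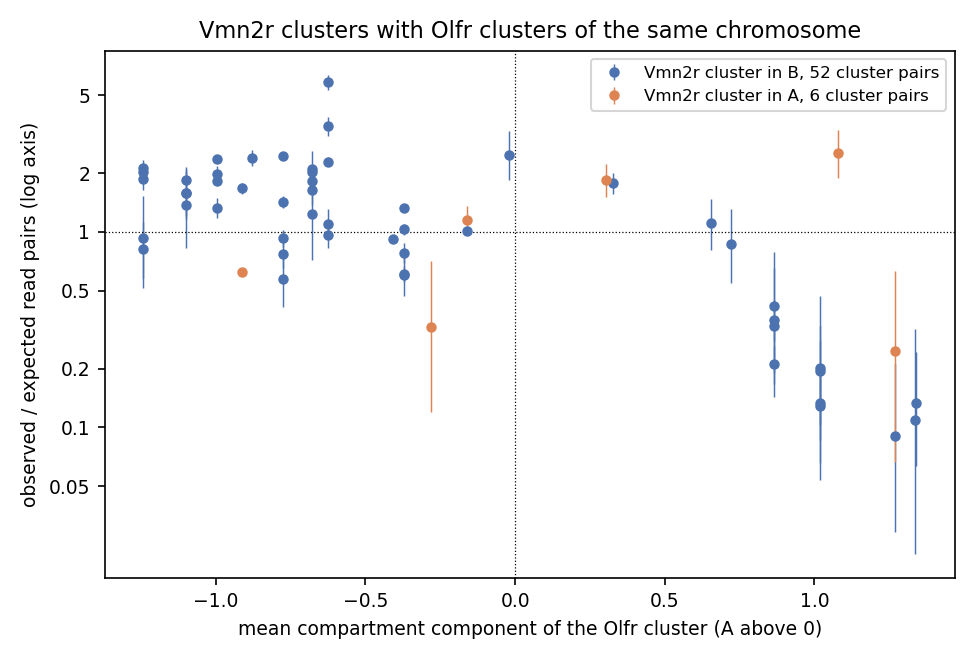
Each point is a pair of a Vmn2r and an Olfr cluster of the same chromosome. The x axis is the mean component of the Olfr cluster (A to the right of 0). The log y axis is observed over expected read pairs, summed over 8 libraries, with 95% exact Poisson intervals. Pairs with Olfr clusters in A fall to 0.0900, and the highest point in B is chr7c with the Olfr1344 cluster at 5.83.

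Differences between groups were tested for 1457816 bin pairs of the same autosome, of which 4154 touched a Vmn2r bin, 411 lay within a cluster and 265 joined Vmn2r to Olfr bins (edgeR's quasi-likelihood test, FDR 5%, with offsets that follow abundance). Between 3 h and 10 h 0 of the 4154 changed (239 at an unadjusted p under 0.05, 0 by DESeq2), against 0.000617% of all bin pairs. From 10 h to imminent division 63 changed, 55 stronger and 8 weaker, which is 1.52%, against 2.02% of all (0.694% stronger and 1.33% weaker). Of these, 9 stronger pairs lay within clusters (2.19% of 411) and 3 joined Olfr bins. Among 6938 pairs of Olfr bins with each other 2.23% were stronger. From 10 h to pre-S 31 became stronger and 0 weaker (0.746%, against 0.595% of all called and 0.339% stronger), 8 of them within clusters. Between imminent division and pre-S 8 differed, 2 stronger and 6 weaker (0.193%, against 0.361% of all, 0.147% stronger and 0.214% weaker). Among pairs with both bins in B, 0.724% were stronger and 0.170% weaker at imminent division. The shares were 0.713% and 0.0852% at pre-S, and 0.130% and 0.340% between the 33 h groups. The differences from these shares were not tested. DESeq2, run without the offsets that follow abundance, called 0, 1, 0 and 0 in the 4 comparisons. Where bin coverage entered the offsets the split became 29 stronger and 29 weaker, 2 and 52, and 39 and 5 in the last 3 comparisons, so the direction turned with the scaling at pre-S and between the 33 h groups, and the excess of stronger pairs at imminent division was lost.

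Vmn2r82 with the bin of Plpp2, a lipid phosphatase gene 150 kb away and outside the chr10a array, had the smallest p of the stronger pairs at imminent division. Its normalized counts were 27.8 and 33.8 at 10 h and 65.4 and 66.3 at imminent division (log2 difference 1.08, adjusted p = 0.000457, edgeR). Within chr17a, Vmn2r97 with Vmn2r98 went from 27.8 and 26.2 to 55.8 and 55.9 (1.05), and Vmn2r124 with a bin 1900 kb away from 3.37 and 5.20 to 19.3 and 17.1 (2.01). The weaker pairs included Vmn2r29, at the edge of chr7b, with the bin of the zinc finger gene Zfp418 (158 and 151 against 109 and 105, -0.52) and with Zfp583 900 kb away (35.8 and 35.1 against 12 and 20.1, -1.11), and Vmn2r18 with the bin of Zar1l and Brca2 1100 kb away (27.3 and 24.7 against 5.66 and 14.8, -1.29). The gene Zfp772 also starts in the bin of Vmn2r29, so these contacts cannot be assigned to either gene. In this comparison 38 of the member pairs passed without the second imminent division library, 15 without the first, and 5 or 3 with the first or second 10 h library left out.

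At pre-S the smallest p values were between neighbouring bins. Vmn2r24 in chr6 and the next bin went from 132 and 146 at 10 h to 230.0 and 208 (log2 difference 0.65), Vmn2r98 and the next bin from 112 and 91.5 to 176 and 160.0 (0.74), and Vmn2r106 with Vmn2r107 from 129 and 129 to 214 and 190.0 (0.66, edgeR adjusted p = 0.000942, 0.00120 and 0.00155). The last 2 turned to -0.07 and -0.13 with bin coverage in the offsets. The number of pairs that passed was 0 without the first pre-S library, 7 without the second, and 3 or 4 with the first or second 10 h library left out.

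Between imminent division and pre-S the 2 stronger pairs both lay at chr10a. Vmn2r82 with Vmn2r83 had 78 and 88.6 normalized counts at imminent division against 43.3 and 49.6 (log2 difference 0.85), and Vmn2r83 with the bin of Madcam1 and Gzmm had 28.9 and 34.8 against 13.6 and 11.8 (1.32). The 3 weaker pairs with the smallest p lay in chr7e. Vmn2r74 with the bin before it had 134 and 106 against 194 and 164 (-0.60), Vmn2r75 with Vmn2r76 had 148 and 115 against 201 and 179 (-0.55), and Vmn2r76 with Olfr310 had 132 and 130 against 193 and 189 (-0.54). All 3 turned to between 0.04 and 0.08 with bin coverage in the offsets. The number that passed was 0 without the second imminent division library or the first pre-S library, 1 without the second pre-S library, and 17 without the first imminent division library.

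Contacts over longer distances were tested over pairs of regions of 1 Mb on the same chromosome, at least 2 regions apart. There were 154695 in all, and counts were taken relative to the mean pair at that distance. A region was named by the Vmn2r or Olfr genes that start in it, which could be 1 gene. Its count covers all its usable bins, so gene names in the region tests stand for whole regions. Pairs with Vmn2r genes on both sides joined different clusters or lay within a long cluster such as chr17a. The counts below do not separate these kinds. Of 59 pairs with Vmn2r genes on both sides, 0 changed from 3 h to 10 h (4 at an unadjusted p under 0.05, against 0.901% of all called, 0.173% stronger and 0.728% weaker). At imminent division 18 differed from 10 h, 16 stronger and 2 weaker (30.5%, against 34.5% of all called and 19.2% stronger), and 19 did when the second imminent division library was left out. At pre-S 33 differed, 32 stronger and 1 weaker (55.9%, against 35.6% of all called and 19.2% stronger, and 43.4% stronger among pairs of B regions). Imminent division against pre-S gave 14, 1 stronger and 13 weaker (23.7%, against 24.1% of all called, 12.8% stronger and 11.3% weaker, and 28.2% weaker among pairs of B regions). With region coverage in the offsets the splits were 11 stronger and 8 weaker, 7 and 14, and 17 and 4, so the direction turned in the last 2. The 33 became 19 and the 14 became 9 by DESeq2, which was not taken relative to distance. The 33 became 21 without the first pre-S library. The 14 became 6 when the second imminent division library was left out, and 7 or 8 without the first or the second pre-S library.

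The region of Vmn2r90, at the start of chr17a, with that of Vmn2r98 to Vmn2r103 had normalized counts of 1382 and 1483 for 3 h, 1318 and 1378 for 10 h, 2213 and 2109 for imminent division, whereas pre-S had 1815 and 1801. All 4 libraries at 33 h were above the earlier ones, and the log2 difference from 10 h was 0.68 at imminent division (adjusted p = 7.89e-12, edgeR) and 0.42 at pre-S (3.71e-06). It was also the 1 pair that was stronger at imminent division than at pre-S (0.26). Vmn2r90 with Vmn2r104 to Vmn2r110 (0.50) and the region from Vmn2r124 to Vmn2r97 with Vmn2r104 to Vmn2r110 (0.40) were next at imminent division. These pairs, like the first, lay within chr17a. Contacts from chr17a to chr17b rose at pre-S: the region of Vmn2r124 to Vmn2r97 with that of Vmn2r-ps130 to Vmn2r117 had 294 and 329 at 10 h and 467 and 474 at pre-S (0.59). The pair of regions that hold the single genes Vmn2r118 and Vmn2r120 was weaker in both 33 h groups, relative to the mean pair at that distance. It fell from 1706 and 1777 at 10 h to 1486 and 1546 for imminent division (-0.20) and to 1505 and 1565 in pre-S cells (-0.18). DESeq2, which was not taken relative to distance, gave a difference of the opposite sign at imminent division (0.10). The regions of Vmn2r98 to Vmn2r103 and of Vmn2r118 had 487 and 475 at imminent division against 692 and 683 at pre-S (-0.52).

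For 146 region pairs of Vmn2r with Olfr genes on the same chromosome, 2 changed from 3 h to 10 h, both weaker (1.37%, against 0.901% of all called and 0.728% weaker). They joined the Olfr55 to Olfr63 region of chromosome 17 with Vmn2r120 (344 and 319 normalized counts, then 224 and 212, log2 difference -0.60, edgeR adjusted p = 0.00101) and with Vmn2r118 (173 and 146, then 107 and 109, -0.53). At imminent division 38 differed from 10 h, 23 stronger and 15 weaker (26%), and at pre-S 55, 41 stronger and 14 weaker (37.7%), while imminent division against pre-S gave 29, 11 stronger and 18 weaker (19.9%). Of all region pairs 34.5% were called at imminent division (19.2% stronger and 15.3% weaker, against 15.8% and 10.27% here), 35.6% at pre-S (19.2% and 16.4%, against 28.1% and 9.59%) and 24.1% between the 33 h groups (12.8% and 11.3%, against 7.53% and 12.3%). Among pairs of B regions 18.8% were stronger and 9.2% weaker at imminent division. The shares were 43.4% and 3.58% at pre-S, and 2.49% and 28.2% between the 33 h groups. The differences from these shares were not tested. With region coverage in the offsets the Vmn2r with Olfr counts became 9 stronger and 26 weaker, 2 and 35, and 25 and 9, so the direction turned in all 3 comparisons. The 2 pairs became 0 or 1 without a 10 h library, 1 without the first 3 h library or a pre-S library, and 4 without an imminent division library. The 38 became 35 when the second imminent division library was left out and 24 without the first 10 h library, the 55 became 32 when the first pre-S library was left out and 34 when the second 10 h library was, and the 29 became 11 when the first pre-S library was left out and 16 when the second imminent division library was. DESeq2, not taken relative to distance, called 22, 25 and 8 in these 3 comparisons, and from 3 h to 10 h it also called 2, but both stronger.

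Chromosome 7 held 96 of the 146 pairs, of which 19 were stronger and 2 weaker at imminent division. At pre-S 26 were stronger and 5 weaker. Of the 24 pairs of chromosome 17, 1 was stronger and 11 weaker at imminent division, whereas 11 were stronger and 4 weaker at pre-S. The difference between the chromosomes was not tested. Vmn2r79 with Olfr543 to Olfr574 went from 128 and 119 at 10 h to 222 and 193 at imminent division (0.75), and Vmn2r65 to Vmn2r73 with Olfr635 to Olfr669 from 145 and 164 to 239 and 260.1 at pre-S (0.68). The region of Vmn2r-ps130 to Vmn2r117 with Olfr55 to Olfr63 fell from 469 and 464 to 290 and 263 at imminent division and to 288 and 291 at pre-S (-0.76 and -0.69, edgeR adjusted p = 9.00e-10 and 1.26e-07). Vmn2r8 to Vmn2r14 with Olfr718-ps1 fell from 349 and 328 to 168 and 229 at pre-S (-0.78). Contacts of chr17a with the Olfr761 to Olfr136 region differed between the 33 h groups: Vmn2r98 to Vmn2r103 had 899 and 899 for 10 h, 689 and 688 for imminent division, whereas pre-S had 1104 and 1085 (imminent division against pre-S -0.67, edgeR adjusted p = 1.58e-09).

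Between chromosomes, 264 region pairs with Vmn2r genes on both sides were tested among 2266040. 0 changed in any of the 4 comparisons by edgeR, with or without the second imminent division library, or by DESeq2, and 18, 22, 20 and 21 had an unadjusted p under 0.05. Of all pairs 0% were called from 3 h to 10 h, 0.0869% at imminent division, 0.03% at pre-S and 0.0222% between the 33 h groups. These pairs held few reads (a mean of at least 5 a library was required), and smaller differences may not have been detectable at this depth.

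The compartment component was tested with limma over 23789 bins of 100 kb, 83 of them with Vmn2r genes. From 3 h to 10 h 2 changed, both lower (2.41%, against 3.32% of all called, 0.988% higher and 2.33% lower). Vmn2r1 went from 0.485 and 0.333 at 3 h to 0.174 and 0.179 at 10 h (difference -0.23, adjusted p = 0.0132, limma) and stood at 0.0802 and 0.0922 for imminent division, whereas pre-S had 0.0188 and 0.0421. Vmn2r120 went from -0.228 and -0.214 to -0.452 and -0.402 (-0.21) and was lower still at 33 h. Without either 10 h library 0 bins passed, and without the second 3 h library 20, all lower.

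At imminent division 16 bins differed from 10 h, 4 higher and 12 lower (19.3%, against 22.6% of all called, 8.72% higher and 13.8% lower). At pre-S 17 were lower and 0 higher (20.5%, against 25.1% of all called, 2.69% higher and 22.4% lower). Vmn2r57, which opens chr7d, crossed 0: it was 0.0700 and 0.0376 for 10 h, -0.185 and -0.223 for imminent division, whereas pre-S had -0.169 and -0.156 (limma adjusted p = 0.000101 and 0.000371). Vmn2r118 (-0.278 and -0.205, then -0.596 and -0.495 at imminent division) and Vmn2r29 (0.351 and 0.393, then 0.135 and 0.178) were lower too, as were Vmn2r117 (-0.551 and -0.466, then -0.823 and -0.773 at pre-S) and Vmn2r88/Vmn2r89 (-0.349 and -0.334, then -0.600 and -0.623). The bins of Vmn2r96 and Vmn2r97 in chr17a and of Vmn2r82 in chr10a were higher at imminent division, Vmn2r97 at -1.11 and -1.13, then -0.940 and -0.971. Of the 13 tested bins of chr7e 0 passed in either comparison. Without the second 10 h library 9 and 10 passed in these comparisons, and the 16 became 13, 2 higher and 11 lower, when the second imminent division library was left out.

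Imminent division and pre-S differed in 11 of the 83 bins, 10 higher and 1 lower at imminent division (13.3%, against 17.9% of all called and 15.7% higher). Vmn2r82 was at -0.416 and -0.300 against -0.603 and -0.633 (difference 0.26, limma adjusted p = 0.00148), and its neighbour Vmn2r83 was at 0.158 and 0.232 against -0.0754 and -0.0466, on opposite sides of 0. Vmn2r56 was the lower one, at -0.221 and -0.187 against -0.0853 and -0.0494. The number that passed was 3 without the second imminent division library, 7 without the first, 4 or 5 without the first or the second pre-S library, and 27 without either 3 h library. With quantile normalization of the component between libraries the splits were 7 higher and 11 lower at imminent division, 1 and 8 at pre-S, and 7 and 9 between the 33 h groups, so the direction of the last comparison was not kept.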

How the data were processed

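Per the study's methods, the authors aligned read pairs to mm10 with diffHic, marked duplicates, removed dangling ends and large fragments, and counted them into bins of 50 kb rounded to MboI sites. The deposited files hold these raw counts of read pairs per bin pair, 1 library each, with no coordinates. Bins were rebuilt here from the MboI sites of GRCm38 (53357 bins over 66 sequences). Groups came from the sample labels. Members and gene lists were chosen with earlier results of these data known. The sources of the gene names were GENCODE vM21 for bins and RefSeq for promoters.

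All 8 libraries entered each fit (edgeR 4.0.16, limma 3.58.1, R 4.3.3), with no replicate block and an FDR of 5% over all features tested. Bin pairs needed 10 counts in all and an abundance 4 times the interchromosomal background, region pairs a mean of 5 counts a library, and bins a mean of 50. DESeq2 1.42.0 was an alternative, with size factors per library and without the distance or abundance offsets. Named items were, per comparison and direction, up to 3 with the smallest p among those past the threshold, besides the bins with the 5 lowest and 5 highest shares of unique words, the unusable bins and the vomeronasal list. The tests were also run on simulated data with known differences, but without the normalization factors and offsets used for the counts here. Those runs therefore do not check the scaling. Sex chromosomes and unplaced sequences were not analysed here beyond their share of read ends. Read pairs are not independent molecules, so intervals cover counting error only.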

Additional observations from a re-analysis of the deposited data

Results flagged for a closer look

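Imminent division and pre-S are both compared with 10 h, so a difference between them is a difference of their changes from 10 h. By that direct comparison (edgeR or limma, FDR 5%) the changes differed in 53 of 109 Vmn2r bins for interchromosomal coverage (48.6%, against 43.7% of all bins), 8 of 4154 bin pairs (0.193%, against 0.361%), 14 of 59 region pairs between Vmn2r genes (23.7%, against 24.1%), 29 of 146 region pairs of Vmn2r with Olfr genes (19.9%, against 24.1%), and 11 of 83 bins for the compartment component (13.3%, against 17.9%). These shares were near or below those of all features. Without the second imminent division library the counts were 14, 0, 6, 16 and 3. The 53 were all lower at imminent division, as were 49.8% of B bins. Of the 11, 10 were higher, against 15.7% of all bins, but with quantile normalization 7 were higher and 9 lower. Stage, mouse line and sort cannot be told apart here.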

How the results depend on the processing

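Of the 17 counts of calls above 0, 54 of 75 values under other settings and 90 of 136 without 1 library were within 1.5 times of the reported count. The cause of the others was not tested.

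With DESeq2, 1, 0 and 0 bin pairs passed at imminent division, at pre-S and between them, with 15 and 33 bins for coverage at imminent division and between the 33 h groups. Its region pairs numbered 19 (pre-S) and 9 (between the 33 h groups) among Vmn2r genes, and 22, 25 and 8 with Olfr genes in the last 3 comparisons. It gave 0.10 for Vmn2r118 with Vmn2r120 and 0.14 for Vmn2r104 to Vmn2r110 with Vmn2r111 to Vmn2r113 at imminent division, both of the opposite sign. DESeq2 was run without distance or abundance offsets, so its differences of contacts are not the same quantity. An abundance of 2 times the background gave 12, 8 and 5 bin pairs, and TMM factors 119 at imminent division.

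With bin coverage in the offsets, 1 bin pair passed from 3 h to 10 h, 54 at pre-S and 44 between the 33 h groups. Signs turned for Vmn2r98 with the next bin (-0.0748) and Vmn2r106 with Vmn2r107 (-0.13) at pre-S, and for the bin before Vmn2r74 with it (0.0850), Vmn2r75 with Vmn2r76 (0.0815) and Vmn2r76 with Olfr310 (0.0405) between the 33 h groups. With region coverage, 21 Vmn2r region pairs passed at pre-S and 4 with Olfr genes from 3 h to 10 h, and Vmn2r79 with Olfr575 to Olfr633 (-0.16) and Vmn2r65 to Vmn2r73 with Olfr474 to Olfr519 (-0.39) turned at pre-S. For the component, bins of 200 kb gave 4 from 3 h to 10 h and quantile normalization 9 at pre-S.

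Mean observed over expected within clusters (1.25) became 0.681 without coverage in the expected count, 1.03 against B-compartment pairs, 1.36 without pairs that share a word, 1.53 with both bins at least 80% unique, 1.62 with at most 50 shared words, 1.03 with over 200, and 1.33 without adjacent bins. In the same order up to over 200 words, pairs between clusters in cis (1.40) became 0.882, 0.663, 2.01, 1.84, 1.61 and 1.26, and Vmn2r with Olfr pairs (1.38) became 0.887, 0.840, 1.26, 1.57, 1.5 and 1.26. Pairs in trans (2.03) became 1.24, 1.27, 2.25 and, with at most 50 words, 2.31, but the 2.25 rests on 18 read pairs of 58 bin pairs, with 0 to 6.01 per library, and the 2.01 in cis on 109 read pairs of 9 bin pairs.

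Same-numbered replicates share only a number, with correlations of their deviations of 0.125, -0.134, -0.0877 and 0.153 in the 4 comparisons. The replicate block moved 1 count by over 1.5 times, that of Vmn2r with Olfr region pairs from 3 h to 10 h (1 for 2). For imminent division against 10 h, a crossed pairing chosen after seeing the data called 67 bin pairs, 19 and 39 region pairs, 16 component bins and 34 coverage bins.

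Without 1 library, in the order of the 4 comparisons, calls ranged over 0, 3 to 75, 0 to 41 and 0 to 17 for bin pairs, 0, 12 to 19, 21 to 33 and 6 to 17 for Vmn2r region pairs, 0 to 4, 24 to 39, 32 to 56 and 11 to 32 with Olfr genes, 0 to 20, 9 to 21, 10 to 25 and 3 to 27 for the component, and 0, 5 to 48, 52 to 75 and 14 to 74 for coverage. Interchromosomal region pairs gave 0 throughout. The mean ratios ranged from 1.23 to 1.27, 1.38 to 1.43, 1.99 to 2.06 and 1.35 to 1.41. Poorly covered copies in chr7b limit what any setting can show.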

Other observations

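A few bins had high coverage although much of their sequence was repeated, and they were picked out after their values were seen. Vmn2r114/Vmn2r115 in chr17b stood at 1.75 times the median bin with 62.4% unique words, and Vmn2r-ps159 on chromosome 4 at 1.73 times with 65.5%. The neighbours Vmn2r116 and Vmn2r117 stood at 1.43 and 1.31. In all, 19 of 113 Vmn2r bins were above the median bin.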
